A study of Homo sapiens with 18 samples.

Results

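The 37 genes described here encode ligands and receptors of the tumour necrosis factor (TNF) superfamily. They were chosen by symbol: every gene whose symbol starts with TNFSF or TNFRSF, together with TNF, LTA, LTB, LTBR, CD40, CD40LG, CD27, CD70, FAS and FASLG, as long as a probe set of the array was annotated to that gene alone. Where several such probe sets existed for a gene, that of the highest mean signal over all arrays stands for it. The 37 are among 18417 genes that could be read singly in this way, and they comprise 14 ligands, 6 receptors with a death domain, 2 decoy receptors and 15 receptors without a death domain. In 34 of them there was 1 probe set. The 3 probe sets of TNF held identical values, and 3 of the 4 probe sets of LTB did too. The 3 probe sets of LTA held different values. TNFSF12, TNFSF13, TNFRSF6B and TNFRSF10C were measured only on probe sets shared with another gene and are not among the 37, and CD40LG was not analysed here.

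Transcripts were measured in NB4 cells, an established line from acute promyelocytic leukaemia that takes on features of granulocytes under all-trans retinoic acid (ATRA), a ligand of the retinoic acid receptors. The 6 groups were TG2 knockout and wild-type cells without ATRA, TG2 knockout and wild-type cells after 48 h in 1 µM ATRA, and TG2 knockout and wild-type cells after 72 h in 1 µM ATRA. Each group held 3 arrays, which the labels call biological replicates without saying how the cultures were separated, so p-values measure the spread between these samples. TG2 is transglutaminase 2, a protein-crosslinking enzyme, and neither the way the modified line was made nor its number of clones is given in the sources used here. All values below are log2 signals or differences of log2 signals, and a difference was called when its adjusted p was under 0.05.

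TNF superfamily ligands are trimers, mostly anchored in the membrane, that bind and cluster their receptors on the same or on neighbouring cells. Receptors with a death domain can recruit FADD and caspase 8 and start apoptosis, receptors without one recruit TRAF proteins and turn on NF-kB and MAP kinases, and decoy receptors bind ligand without passing on a death signal. In myeloid cells the family is known for inflammatory signalling by TNF, for killing by TRAIL (TNFSF10) and Fas ligand, and for contact signals to T and B cells such as CD70 and 4-1BBL (TNFSF9).

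TGM2, the gene of TG2, was measured first as a check of the labels. It averaged 6.39 ± 0.11 in knockout and 6.43 ± 0.17 in wild-type cells without ATRA, 10.95 ± 0.37 and 12.27 ± 0.18 at 48 h (adjusted p = 0.0345), and 11.24 ± 0.37 and 12.37 ± 0.18 at 72 h (adjusted p = 0.0267; SD, n = 3 each). The transcript was thus lower in knockout cells under ATRA but not absent there. The sample codes of the modified line carry the letters KD. Of 9 listed promyelocyte and neutrophil markers 8 were measured, between the 35.7th percentile of mean signal (CEACAM8) and the 99.6th (MPO). The 6 T cell markers lay between the 10.9th and 49.3rd percentile, 4 B cell markers between the 17th and 67.2nd (CD79A), 4 dendritic cell markers between the 17.6th and 46.7th, and 5 NK cell markers between the 4.6th and 96.9th (NKG7). The mean of 5 monocyte markers ranged over single arrays from 5.33 to 5.59 in knockout and from 5.72 to 6.10 in wild-type cells at 72 h, against 5.15 to 5.27 in knockout and 5.21 to 5.36 in wild-type cells without ATRA. The per-array mean of the 8 promyelocyte and neutrophil markers was 9.27 to 9.31 in knockout and 9.51 to 9.53 in wild-type cells at 72 h. Without ATRA it was 8.82 to 8.83 in knockout and 8.68 to 8.72 in wild-type cells. The part of these shifts in the results below was not tested. In bulk samples such as these, fewer cells of a type and less RNA per cell cannot be told apart. On the first principal component the untreated arrays lay between −89.9 and −84.7, and the ATRA arrays between 46.3 and 56.6 except for replicates 1 and 3 of knockout cells at 48 h (31.2 and 31.1), replicate 2 of knockout cells at 72 h (30.0) and replicate 1 of wild-type cells at 48 h (17.5). The SD of a member within a group had a median of 0.196 in the ATRA groups and 0.085 in the untreated groups.

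ATRA changed members of the family in both directions. In knockout cells 16 of the 37 members were called at 48 h, where 41.4% of all 33297 probe sets were called. Of these, 9 were higher and 7 lower, against 21.5% and 19.9% of all probe sets. At 72 h 17 members were called in knockout cells (42% of all probe sets), 9 higher and 8 lower (22.8% and 19.2%). In wild-type cells 14 were called at 48 h (38.9%), 7 higher and 7 lower (19.3% and 19.6%), and 18 at 72 h (44%), 12 higher and 6 lower (23.1% and 21%). The members' shares of 43.2%, 45.9%, 37.8% and 48.6% were near those of all probe sets, so these totals show nothing particular to the family. In the same order, 24.3%, 24.3%, 18.9% and 32.4% of members were called higher and 18.9%, 21.6%, 18.9% and 16.2% lower. Of the 18417 genes read singly, 18.3%, 18.2%, 16.5% and 19.6% were called higher and 24.5%, 23.5%, 22.6% and 24.4% lower. The split by direction was not tested. The median difference of the 37 was 0.09 at 48 h and 0.13 at 72 h in knockout cells and 0.22 at both times in wild-type cells, against 0.14, 0.13, 0.10 and 0.12 over all probe sets. Without replicate 1 of the untreated wild-type cells the count in wild-type cells at 72 h was 11.

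Called higher in all 4 comparisons of ATRA with untreated cells were the ligands CD70 and TNFSF9 and the receptors TNFRSF1B, TNFRSF14, TNFRSF13B and TNFRSF11A. Called lower in all 4 were the ligands TNF, TNFSF10 and LTA and the receptors LTBR and TNFRSF21. Another 14 members were called in 1 to 3 of the comparisons, none of them in opposite directions, and 12 were called in none. Comparisons of the 2 times within a genotype share their untreated arrays. Over the 4 comparisons, 5 ligands were called higher, 5 lower and 4 not at all. Of the 15 receptors without a death domain 8 were called higher and 1 lower, and of the 6 with a death domain 1 was called higher and 3 lower. Over all probe sets 34.1% were called higher in at least 1 of the 4 comparisons and 25.8% lower, and the classes were not tested against each other.

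**Figure D1:**
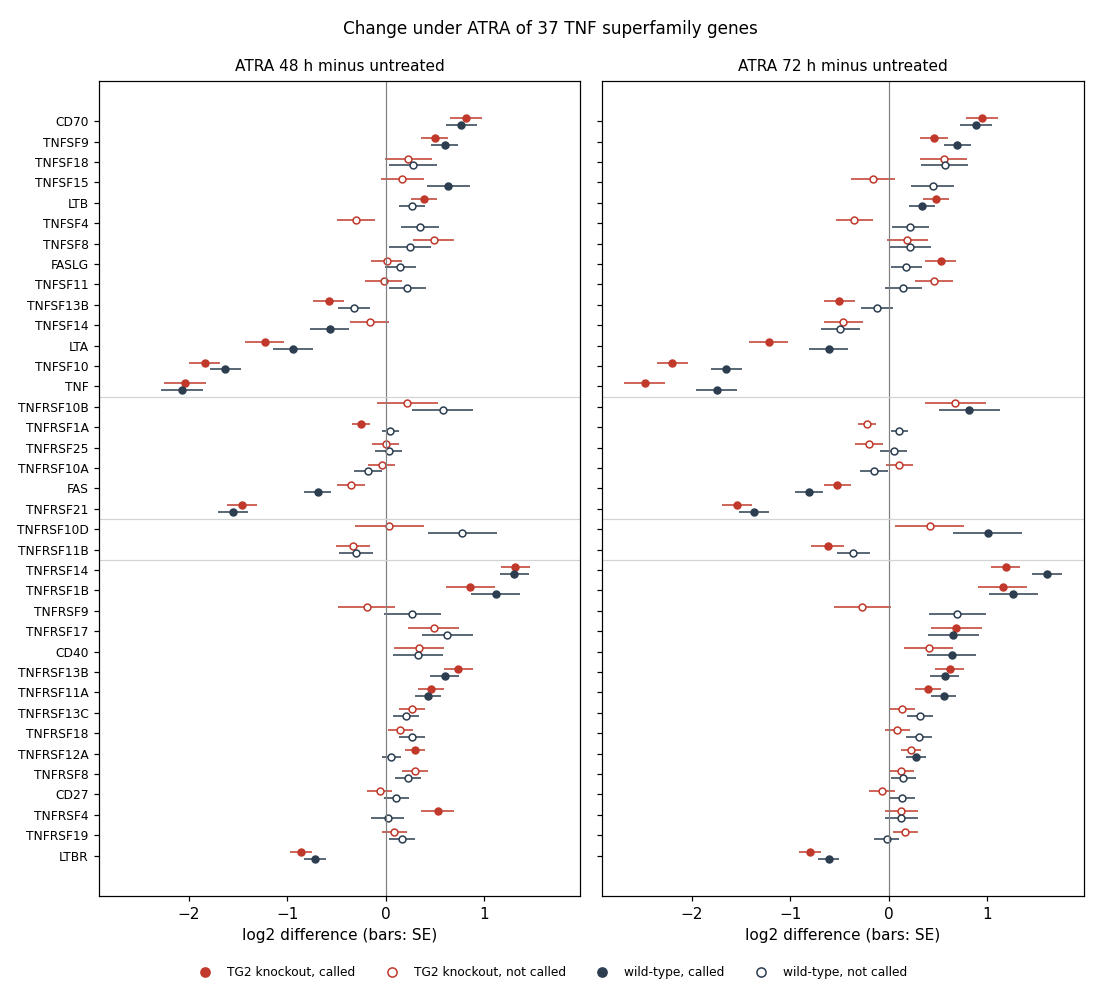
Difference of log2 signal between ATRA and untreated cells for the 37 members, with a row per gene sorted by class and by the change at 72 h in wild-type cells. Bars are SE from the fit, and filled symbols mark called differences. TNF, TNFSF10, TNFRSF21, LTBR and LTA lie left of 0 at both times in both genotypes, and TNFRSF14, TNFRSF1B, CD70, TNFSF9, TNFRSF13B and TNFRSF11A lie right of it.

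The promoters of the members with the 2 largest falls and the 2 largest rises in wild-type cells at 72 h are shown because these genes carry the ATRA result. They are RefSeq sequences on GRCh38.p14, from 250 bases before to 50 bases after the start given for each promoter, written 5′ to 3′ along the gene. For TNF, TNFSF10 and TNFRSF1B this is the annotated start of the gene. The TNFRSF14 window lies inside the annotated gene, which begins at chr1:2554234. TNF lies at chr6:31575315-31575614 (plus strand), TNFSF10 at chr3:172523381-172523680 (minus strand), TNFRSF14 at chr1:2556121-2556420 (plus strand) and TNFRSF1B at chr1:12166741-12167040 (plus strand). Capitals mark matches to TATAAA, the TATA box, and to the interferon regulatory factor repeat, GAAA followed after any 2 bases by GAAA, here found on the other strand.
TNF: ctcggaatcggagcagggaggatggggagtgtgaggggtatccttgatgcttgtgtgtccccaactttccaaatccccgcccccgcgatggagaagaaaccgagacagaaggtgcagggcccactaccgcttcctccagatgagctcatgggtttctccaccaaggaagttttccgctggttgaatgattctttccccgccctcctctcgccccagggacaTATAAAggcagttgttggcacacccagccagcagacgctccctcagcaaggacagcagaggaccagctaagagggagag
TNFSF10: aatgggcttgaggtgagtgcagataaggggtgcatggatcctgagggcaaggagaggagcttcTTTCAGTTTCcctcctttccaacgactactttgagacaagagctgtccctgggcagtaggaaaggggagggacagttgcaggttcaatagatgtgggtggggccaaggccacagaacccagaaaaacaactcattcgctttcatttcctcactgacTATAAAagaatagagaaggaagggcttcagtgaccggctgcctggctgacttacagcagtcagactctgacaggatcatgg
TNFRSF14: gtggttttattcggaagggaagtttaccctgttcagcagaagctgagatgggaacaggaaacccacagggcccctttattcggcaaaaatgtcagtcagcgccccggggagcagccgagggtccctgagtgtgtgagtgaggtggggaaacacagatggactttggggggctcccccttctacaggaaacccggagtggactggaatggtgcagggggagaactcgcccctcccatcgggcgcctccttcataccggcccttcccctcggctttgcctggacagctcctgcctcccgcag
TNFRSF1B: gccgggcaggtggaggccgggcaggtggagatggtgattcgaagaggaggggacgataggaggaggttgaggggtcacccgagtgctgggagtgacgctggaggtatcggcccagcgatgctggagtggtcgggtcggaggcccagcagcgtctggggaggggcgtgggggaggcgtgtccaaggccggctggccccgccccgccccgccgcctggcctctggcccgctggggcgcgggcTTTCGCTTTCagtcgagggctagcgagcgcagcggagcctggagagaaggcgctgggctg
Both genes that fell held TATAAA shortly before the start, at −29 in TNF and −31 in TNFSF10. Neither of the 2 that rose held it in the window shown, which for TNFRSF14 is not at the start of the gene. The match to this repeat began at −187 in TNFSF10 and at −10 in TNFRSF1B. RefSeq promoters matched 26 of the 37 members by gene identifier. For some others of them, such as FAS and LTA, the window also lay away from the annotated start of the gene. On either strand, TATAAA was found in 4 of the 26 (TNF, TNFSF10, TNFSF9 and TNFRSF18) and in 12% of 27305 promoters, and the GAAA repeat in 6 of the 26 and in 3.65% of all. The retinoid receptor core motif AGGTCA was found in 3 of the 26 (TNFRSF18, TNFRSF9 and TNFSF13B) and in 13.9% of all, and an NF-kB motif, GGGA and TTTCC joined by any 1 base, in 2 (LTB and TNFRSF9) and in 0.579% of all. The motifs share no letters in the sequences shown, TATAAA was chosen after the printed promoters had been read, and a match is a description of the letters, not a binding site. Among the members called at 72 h in wild-type cells, TATAAA was held by 1 of 6 called higher and 2 of 6 called lower.

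Among the ligands, TNF, the inflammatory cytokine that gives the family its name, had the largest fall. Without ATRA TNF read 9.19, 9.27 and 9.02 in knockout cells and 9.30, 9.29 and 9.29 in wild-type cells. At 48 h TNF read 7.07, 7.35 and 6.94 in knockout cells and 6.72, 7.25 and 7.70 in wild-type cells. At 72 h TNF read 6.42, 7.10 and 6.51 in knockout cells and 7.54, 7.45 and 7.64 in wild-type cells. Every ATRA array lay below every untreated array of its genotype, and at 72 h every knockout array lay below every wild-type array. In knockout cells TNF fell by 2.04 ± 0.21 (SE) at 48 h and by 2.48 ± 0.21 at 72 h, a 5.59-fold lower signal (adjusted p = 2.57e-07). In wild-type cells it fell by 2.07 ± 0.21 at 48 h and by 1.75 ± 0.21 at 72 h, a 3.36-fold lower signal (adjusted p = 6.41e-06).

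TNFSF10 encodes TRAIL, a ligand that triggers apoptosis through the receptors TNFRSF10A and TNFRSF10B. In untreated cells TNFSF10 read 7.93, 7.82 and 7.73 in knockout and 7.73, 7.96 and 7.97 in wild-type cells. At 48 h TNFSF10 read 6.24, 6.03 and 5.70 in knockout and 6.26, 6.19 and 6.33 in wild-type cells. At 72 h TNFSF10 read 5.64, 5.73 and 5.52 in knockout and 6.57, 6.08 and 6.05 in wild-type cells. All ATRA arrays were below all untreated arrays, and at 72 h the knockout arrays were below the wild-type arrays. The fall at 72 h was by 2.2 ± 0.16 in knockout cells (4.58-fold lower, adjusted p = 4.34e-08) and by 1.65 ± 0.16 in wild-type cells (3.15-fold lower, adjusted p = 6.03e-07).

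LTA, lymphotoxin alpha, which shares the receptors of TNF and lies beside it on chromosome 6, fell in all 4 comparisons. Its means without ATRA, at 48 h and at 72 h were 6.92 ± 0.01, 5.69 ± 0.34 and 5.70 ± 0.08 in knockout cells and 6.61 ± 0.15, 5.68 ± 0.36 and 6.0 ± 0.33 in wild-type cells (SD, n = 3 each). The fall at 72 h was by 1.22 ± 0.20 in knockout cells (adjusted p = 0.000155) and by 0.61 ± 0.20 in wild-type cells (adjusted p = 0.0204). The wild-type call at 72 h was lost without wild-type 72 h replicate 2 (−0.43, adjusted p = 0.106) and without untreated wild-type replicates 1 or 2 (adjusted p = 0.0754 and 0.0536). These values are from the brightest of 3 LTA probe sets, and the size of the fall differed between them. Another read 6.79, 6.78 and 6.61 in untreated and 5.74, 5.32 and 5.85 in 72 h wild-type cells. In knockout cells that probe set read 6.98, 6.98 and 7.02 untreated and 5.13, 5.8 and 5.33 at 72 h. The last read 6.43, 6.54 and 6.42 in untreated and 5.89, 5.64 and 6.2 in 72 h wild-type cells. In knockout cells the last read 6.5, 6.6 and 6.61 untreated and 6.04, 5.89 and 5.68 at 72 h. LTB, the membrane anchor of lymphotoxin heterotrimers in the same gene cluster, moved the other way on its brightest probe set. It was called higher at 48 h (0.39 ± 0.13) and 72 h (0.48 ± 0.13) in knockout cells and at 72 h in wild-type cells (0.34 ± 0.13, adjusted p = 0.0447). Its only probe set with other values read 6.61, 6.66 and 6.64 in untreated and 6.23, 6.69 and 6.78 in 72 h wild-type cells. In knockout cells that probe set read 6.30, 6.48 and 6.64 untreated and 6.99, 6.43 and 6.82 at 72 h. With the mean of its probe sets, identical ones included, LTB was not called in wild-type cells at 72 h (0.24, adjusted p = 0.163). The wild-type call was also lost with any of 9 single arrays left out (adjusted p = 0.0521 to 0.145). The knockout call at 48 h was lost without any 1 of the untreated knockout arrays or without knockout 48 h replicate 2 (adjusted p = 0.0522 to 0.0948).

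CD70 and TNFSF9, ligands that costimulate lymphocytes, rose together. In untreated cells CD70 read 7.98, 8.13 and 7.92 in knockout and 8.04, 8.03 and 8.11 in wild-type cells. At 48 h CD70 read 8.67, 9.0 and 8.83 in knockout and 8.35, 8.89 and 9.24 in wild-type cells. At 72 h CD70 read 9.01, 8.85 and 9.02 in knockout and 8.96, 8.92 and 8.98 in wild-type cells. The ATRA arrays lay above the untreated arrays in each genotype, and the rise at 72 h was 0.95 ± 0.16 in knockout cells (1.93-fold, adjusted p = 0.000255) and 0.89 ± 0.16 in wild-type cells (1.86-fold, adjusted p = 0.000372). In untreated cells TNFSF9 read 6.83, 7.06 and 6.81 in knockout and 7.08, 6.86 and 6.89 in wild-type cells. At 48 h TNFSF9 read 7.30, 7.24 and 7.65 in knockout and 7.52, 7.45 and 7.67 in wild-type cells. At 72 h TNFSF9 read 7.43, 7.40 and 7.26 in knockout and 7.85, 7.44 and 7.65 in wild-type cells. Again no ATRA array reached down to the untreated arrays, with a rise at 72 h of 0.46 ± 0.14 in knockout cells (adjusted p = 0.0131) and 0.70 ± 0.14 in wild-type cells (adjusted p = 0.00066). The knockout call of TNFSF9 at 72 h was lost without untreated knockout replicates 1 or 3 (adjusted p = 0.0506 and 0.0519).

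**Figure D2:**
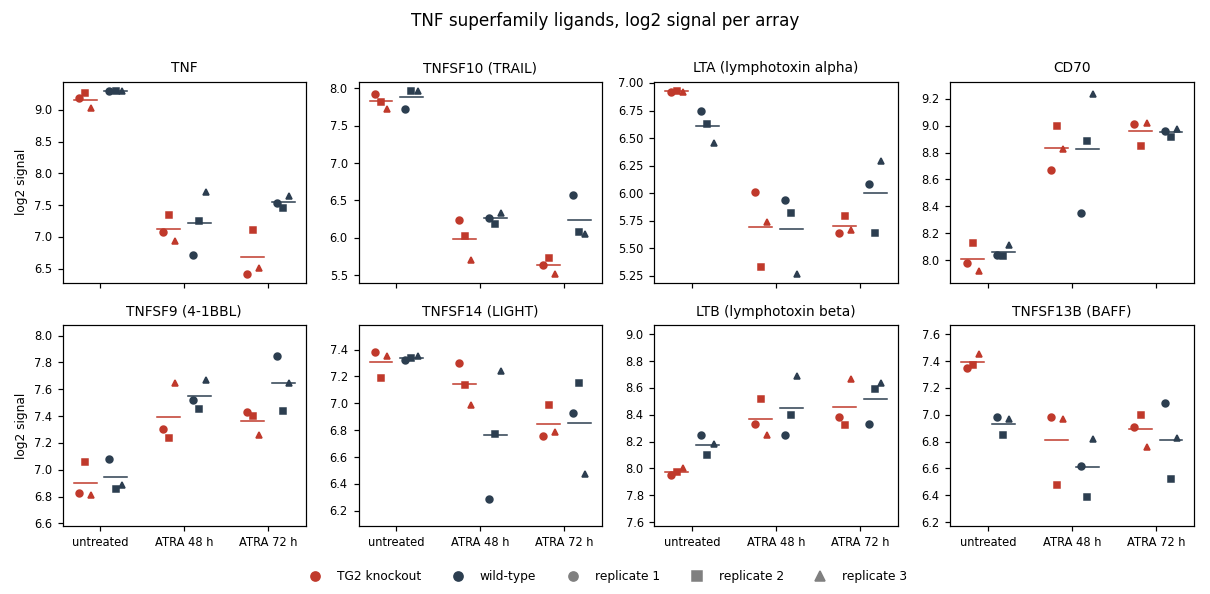
Log2 signal of 8 of the 14 ligands on each of the 18 arrays, with a panel per gene, by time in 1 µM ATRA, with knockout cells left of wild-type cells at each time. Points are arrays, shaped by replicate, and bars are group means. TNF and TNFSF10 step down at 48 h and stay low at 72 h, and CD70 and TNFSF9 step up.

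The remaining ligands were called in at most 2 of the 4 comparisons. TNFSF13B, BAFF, a survival factor of B cells, was called lower in knockout cells at 48 h (−0.58 ± 0.16, adjusted p = 0.00952) and 72 h (−0.50 ± 0.16, adjusted p = 0.0212), where wild-type cells gave −0.32 ± 0.16 and −0.12 ± 0.16 with no call. The 48 h call was lost without knockout 48 h replicate 2 (adjusted p = 0.0542). The 72 h call was lost without untreated knockout replicates 2 or 3 or knockout 72 h replicate 3 (adjusted p = 0.0501 to 0.0759). Quantile normalization also ended the 72 h call (−0.40, adjusted p = 0.0945). FASLG, Fas ligand, which kills cells that carry Fas, read 5.15, 4.99 and 5.15 in untreated knockout and 5.0, 5.05 and 5.19 in untreated wild-type cells. At 48 h FASLG read 5.02, 4.89 and 5.42 in knockout and 5.39, 5.13 and 5.17 in wild-type cells. At 72 h FASLG read 5.65, 5.56 and 5.66 in knockout and 5.38, 4.94 and 5.46 in wild-type cells. The 3 knockout arrays at 72 h lay above every other array. FASLG was called higher in knockout cells at 72 h (0.53 ± 0.16, adjusted p = 0.014), and its mean signal lay at the 32.8th percentile. That call was lost without untreated knockout replicate 2 (adjusted p = 0.0578) and after quantile normalization (0.40, adjusted p = 0.0814). TNFSF14, LIGHT, the ligand of TNFRSF14 and LTBR, read 7.38, 7.19 and 7.35 in untreated knockout and 7.32, 7.34 and 7.35 in untreated wild-type cells. At 48 h TNFSF14 read 7.30, 7.14 and 6.99 in knockout and 6.29, 6.77 and 7.24 in wild-type cells. At 72 h TNFSF14 read 6.76, 6.99 and 6.79 in knockout and 6.93, 7.15 and 6.47 in wild-type cells. The untreated arrays lay close together, and the ATRA arrays spread toward lower values in both genotypes. Its single call in the fit used throughout was lower in wild-type cells at 48 h (−0.57 ± 0.20, adjusted p = 0.0329). It was lost without any 1 of 5 arrays of that comparison (adjusted p = 0.0716 to 0.162), that is all but wild-type 48 h replicate 3. Quantile normalization ended it too (−0.47, adjusted p = 0.104). At 72 h TNFSF14 differed by −0.46 in knockout and −0.49 in wild-type cells with no call. Some alternatives called both, among them limma on only the arrays compared (adjusted p = 0.0157 and 0.0485) and array weights per group (adjusted p = 0.0322 and 0.0133). TNFSF15, TL1A, the ligand of TNFRSF25, was called higher in wild-type cells at 48 h (0.64 ± 0.22, adjusted p = 0.034). This call was lost without wild-type 48 h replicate 3 (0.36, adjusted p = 0.196) or any untreated wild-type array (adjusted p = 0.0679 to 0.0959). After quantile normalization the difference was 0.52 with no call (adjusted p = 0.0843). TNFSF4, TNFSF8, TNFSF11 and TNFSF18, the ligands of OX40, CD30, RANK and GITR, were called in no ATRA comparison.

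Among the receptors with a death domain, TNFRSF21 (DR6) fell most. In untreated cells TNFRSF21 read 7.71, 7.68 and 7.62 in knockout and 7.48, 7.40 and 7.58 in wild-type cells. At 48 h TNFRSF21 read 6.10, 6.21 and 6.31 in knockout and 6.19, 5.75 and 5.88 in wild-type cells. At 72 h TNFRSF21 read 6.03, 6.05 and 6.31 in knockout and 6.40, 6.14 and 5.81 in wild-type cells. The gap between ATRA and untreated arrays was wider than the range within any group, and the fall at 72 h was by 1.54 ± 0.15 in knockout cells (2.91-fold lower, adjusted p = 1.17e-06) and by 1.37 ± 0.15 in wild-type cells (2.58-fold lower, adjusted p = 2.77e-06).

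FAS, the receptor of Fas ligand, was also lower under ATRA. In untreated cells FAS read 6.96, 7.17 and 7.15 in knockout and 7.13, 7.12 and 7.11 in wild-type cells. At 48 h FAS read 6.86, 6.65 and 6.73 in knockout and 6.59, 6.55 and 6.16 in wild-type cells. At 72 h FAS read 6.54, 6.53 and 6.65 in knockout and 6.04, 6.38 and 6.52 in wild-type cells. All ATRA arrays lay below the untreated arrays of their genotype. In wild-type cells it fell at 48 h (−0.69 ± 0.14, adjusted p = 0.00102) and 72 h (−0.81 ± 0.14, adjusted p = 0.000226), and in knockout cells the difference was −0.35 ± 0.14 at 48 h (adjusted p = 0.0561, and 0.0351 to 0.0476 without any 1 of wild-type 48 h replicate 3 or wild-type 72 h replicates 1 or 3) and −0.52 ± 0.14 at 72 h (adjusted p = 0.00714). The responses of the genotypes differed by 0.34 ± 0.20 at 48 h and 0.29 ± 0.20 at 72 h, with an adjusted p of 1 at both times.

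The receptors of TNF moved unequally. TNFRSF1A, TNFR1, the widely expressed receptor with a death domain, read 9.82, 9.80 and 9.67 in untreated knockout and 9.64, 9.54 and 9.66 in untreated wild-type cells. At 48 h TNFRSF1A read 9.52, 9.58 and 9.44 in knockout and 9.65, 9.56 and 9.78 in wild-type cells. At 72 h TNFRSF1A read 9.56, 9.53 and 9.54 in knockout and 9.83, 9.68 and 9.66 in wild-type cells. The knockout arrays under ATRA lay below the untreated knockout arrays, and the wild-type groups overlapped. In the values as deposited its changes were at most 0.25 in size. The single call, −0.25 ± 0.09 in knockout cells at 48 h (adjusted p = 0.0317), turned to 0.03 after quantile normalization. That setting instead called TNFRSF1A higher in wild-type cells at 48 h (0.32, adjusted p = 0.0135) and 72 h (0.39, adjusted p = 0.00358). The knockout call was also lost without knockout 48 h replicates 1 or 3 or untreated knockout replicates 1 or 2 (adjusted p = 0.0612 to 0.111). TNFRSF1B, TNFR2, the receptor without a death domain that responds best to membrane-bound TNF, read 5.96, 5.92 and 6.13 in untreated knockout and 6.05, 5.83 and 5.86 in untreated wild-type cells. At 48 h TNFRSF1B read 6.60, 6.75 and 7.23 in knockout and 6.70, 6.83 and 7.58 in wild-type cells. At 72 h TNFRSF1B read 7.45, 6.63 and 7.41 in knockout and 6.98, 7.02 and 7.55 in wild-type cells. No ATRA array fell within the untreated range, and the rise at 72 h was 1.16 ± 0.25 in knockout cells (2.23-fold, adjusted p = 0.0017) and 1.27 ± 0.25 in wild-type cells (2.41-fold, adjusted p = 0.000735). At 48 h the rise was 0.86 ± 0.25 in knockout cells, which lost its call without knockout 48 h replicate 3 (0.67, adjusted p = 0.0571), and 1.12 ± 0.25 in wild-type cells. Thus TNF fell while the signal of its receptor TNFRSF1B rose in the same arrays.

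The receptors of TRAIL differed in their change and in their spread between arrays. TNFRSF10A, TRAIL-R1, a death receptor, read 7.46, 7.41 and 7.18 in untreated knockout and 7.39, 7.35 and 7.39 in untreated wild-type cells. At 48 h TNFRSF10A read 7.24, 7.03 and 7.66 in knockout and 7.14, 7.23 and 7.23 in wild-type cells. At 72 h TNFRSF10A read 7.52, 7.45 and 7.42 in knockout and 7.14, 7.45 and 7.09 in wild-type cells. The wild-type arrays at 48 h were below those of untreated wild-type cells, and the other ATRA groups overlapped with the untreated ones. TNFRSF10A was called in no comparison. TNFRSF10B, TRAIL-R2, the other death receptor, read 7.11, 7.01 and 6.94 in untreated knockout and 6.94, 7.01 and 7.13 in untreated wild-type cells. At 48 h TNFRSF10B read 6.79, 7.10 and 7.82 in knockout and 7.43, 7.10 and 8.30 in wild-type cells. At 72 h TNFRSF10B read 8.05, 7.31 and 7.75 in knockout and 8.01, 7.26 and 8.27 in wild-type cells. Replicate 3 was the highest at 48 h in both genotypes, and at 72 h replicate 2 was the lowest. The difference at 72 h was 0.68 ± 0.31 in knockout cells (adjusted p = 0.0883, or 0.0211 with the spread taken from the arrays compared alone) and 0.82 ± 0.31 in wild-type cells (adjusted p = 0.0428). This wild-type call was lost with 9 of the 18 arrays left out in turn, namely any untreated array, wild-type 72 h replicates 1 or 3, or knockout 72 h replicate 3, with an adjusted p of 0.0505 to 0.17.

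TNFRSF10D, TRAIL-R4, a decoy with a truncated death domain, read 7.73, 7.74 and 7.69 in untreated knockout and 7.65, 7.69 and 7.6 in untreated wild-type cells. At 48 h TNFRSF10D read 7.32, 7.49 and 8.46 in knockout and 7.83, 8.28 and 9.16 in wild-type cells. At 72 h TNFRSF10D read 8.34, 7.61 and 8.48 in knockout and 8.31, 8.29 and 9.37 in wild-type cells. Replicate 3 was the highest in all 4 ATRA groups. The difference at 72 h was 0.42 ± 0.35 in knockout cells (adjusted p = 0.349) and 1.01 ± 0.35 in wild-type cells (2.01-fold, adjusted p = 0.0296). Without wild-type 72 h replicate 3 the wild-type difference was 0.65 (adjusted p = 0.159), and the call was also lost without any 1 untreated wild-type array (adjusted p = 0.0613 to 0.0739). TNFRSF11B, osteoprotegerin, a secreted decoy of RANK ligand and TRAIL, read 5.2, 5.07 and 5.21 in untreated knockout and 5.08, 5.04 and 4.91 in untreated wild-type cells. At 48 h TNFRSF11B read 4.72, 4.94 and 4.84 in knockout and 4.5, 4.93 and 4.69 in wild-type cells. At 72 h TNFRSF11B read 4.31, 4.91 and 4.39 in knockout and 4.78, 4.38 and 4.78 in wild-type cells. In knockout cells all ATRA arrays were below the untreated arrays. TNFRSF11B was called lower in knockout cells at 72 h (−0.62 ± 0.17, adjusted p = 0.00811), where wild-type cells gave −0.36 ± 0.17 (adjusted p = 0.0934). The wild-type difference was called after quantile normalization (−0.50, adjusted p = 0.0468) or with arrays weighted per group (−0.36, adjusted p = 0.0464). The mean signal of TNFRSF11B lay at the 25.4th percentile.

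**Figure D3:**
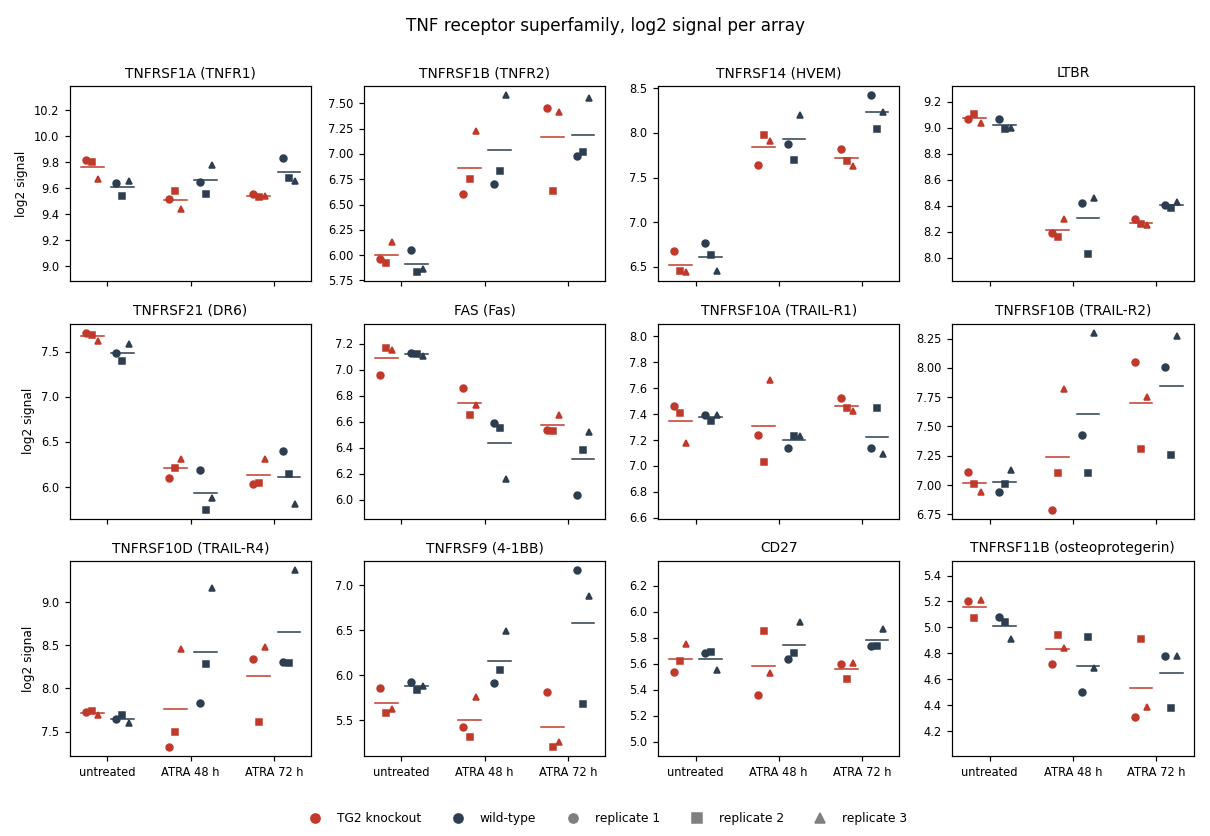
Log2 signal of 12 of the 23 receptors on each of the 18 arrays, with a panel per gene, by time in 1 µM ATRA, with knockout cells left of wild-type cells at each time. Points are arrays, shaped by replicate, and bars are group means. TNFRSF14 and TNFRSF1B rise, TNFRSF21 and LTBR fall, and TNFRSF10B, TNFRSF10D and TNFRSF9 spread widely under ATRA.

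Among the other receptors without a death domain, TNFRSF14 (HVEM), the receptor of LIGHT, rose most. In untreated cells TNFRSF14 read 6.68, 6.45 and 6.44 in knockout and 6.77, 6.63 and 6.45 in wild-type cells. At 48 h TNFRSF14 read 7.64, 7.98 and 7.91 in knockout and 7.88, 7.70 and 8.20 in wild-type cells. At 72 h TNFRSF14 read 7.82, 7.69 and 7.63 in knockout and 8.42, 8.04 and 8.23 in wild-type cells. The ATRA arrays stood apart from the untreated arrays, and at 72 h the knockout arrays were below the wild-type arrays. The rise at 72 h was 1.19 ± 0.15 in knockout cells (2.28-fold, adjusted p = 1.35e-05) and 1.61 ± 0.15 in wild-type cells (3.06-fold, adjusted p = 4.94e-07). LTBR, the receptor of lymphotoxin heterotrimers and LIGHT, fell in the same cells. Its means without ATRA, at 48 h and at 72 h were 9.07 ± 0.04, 8.22 ± 0.07 and 8.27 ± 0.03 in knockout and 9.02 ± 0.04, 8.30 ± 0.24 and 8.41 ± 0.02 in wild-type cells (SD, n = 3 each). The fall at 72 h was by 0.80 ± 0.11 in knockout cells (adjusted p = 2.29e-05) and by 0.61 ± 0.11 in wild-type cells (adjusted p = 0.000232). These signalling receptors of LIGHT thus moved in opposite directions.

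TNFRSF13B, TACI, a receptor of BAFF and APRIL, rose by 0.62 ± 0.15 in knockout cells (adjusted p = 0.00286) and by 0.57 ± 0.15 in wild-type cells (adjusted p = 0.00499) at 72 h. The other BAFF receptors gave weaker results. TNFRSF17, BCMA, was called higher at 72 h in knockout cells (0.69 ± 0.26, adjusted p = 0.0404) and wild-type cells (0.66 ± 0.26, adjusted p = 0.046). With single arrays left out, the first call was lost in 7 of 18 cases (adjusted p = 0.0502 to 0.211) and the second in 11 of 18 (adjusted p = 0.0515 to 0.137), and after quantile normalization the differences were 0.38 and 0.41 with no call. Its mean signal lay at the 13.9th percentile. TNFRSF13C, BAFF-R, was called in no comparison. TNFRSF11A, RANK, the receptor that drives osteoclast formation, rose by 0.40 ± 0.13 in knockout cells (adjusted p = 0.0241) and by 0.56 ± 0.13 in wild-type cells (adjusted p = 0.00313) at 72 h. The knockout call at 72 h was lost without untreated replicates 1 or 3 or 72 h replicates 1 or 3 (adjusted p = 0.0514 to 0.0859). Quantile normalization ended this call as well (0.31, adjusted p = 0.0602). Its 48 h calls were lost without knockout 48 h replicate 2 (adjusted p = 0.0585), and without wild-type 48 h replicate 2 or untreated wild-type replicate 1 (adjusted p = 0.0724 and 0.0686).

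CD40, a receptor of antigen-presenting cells, was called higher in wild-type cells at 72 h (0.64 ± 0.25, adjusted p = 0.0495) although the groups overlapped. Its arrays read 6.01, 4.95 and 5.93 there, against 5.06, 5.06 and 4.86 in untreated wild-type cells, so that replicate 2 remained at the untreated level. The call was lost with 14 of the 18 arrays left out in turn (adjusted p = 0.0526 to 0.193). It was lost after quantile normalization too (0.53, adjusted p = 0.122). TNFRSF12A, Fn14, the receptor of TWEAK, was called higher in knockout cells at 48 h (0.30 ± 0.10) and in wild-type cells at 72 h (0.28 ± 0.10), and each call was lost without any 1 of 4 single arrays (adjusted p = 0.0547 to 0.0613 and 0.0588 to 0.115). TNFRSF4, OX40, was called higher only in knockout cells at 48 h among the 4 ATRA comparisons (0.53 ± 0.17, adjusted p = 0.0199), a call lost without knockout 48 h replicate 2 (0.36, adjusted p = 0.106) or untreated knockout replicates 1 or 2 (adjusted p = 0.0803 and 0.053). TNFRSF8, TNFRSF18, TNFRSF19 and the death domain receptor TNFRSF25 were called in none.

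In the fit used throughout, the partners of CD70 and TNFSF9 were called in no ATRA comparison. CD27, the receptor of CD70, read 5.54, 5.62 and 5.75 in untreated knockout and 5.68, 5.69 and 5.55 in untreated wild-type cells. At 48 h CD27 read 5.36, 5.85 and 5.53 in knockout and 5.64, 5.68 and 5.92 in wild-type cells. At 72 h CD27 read 5.60, 5.48 and 5.61 in knockout and 5.74, 5.74 and 5.87 in wild-type cells. At 72 h the knockout arrays overlapped with the untreated ones, and the wild-type arrays lay just above theirs. TNFRSF9, 4-1BB, the receptor of TNFSF9, read 5.86, 5.58 and 5.63 in untreated knockout and 5.92, 5.84 and 5.88 in untreated wild-type cells. At 48 h TNFRSF9 read 5.42, 5.31 and 5.76 in knockout and 5.91, 6.06 and 6.49 in wild-type cells. At 72 h TNFRSF9 read 5.81, 5.2 and 5.26 in knockout and 7.17, 5.68 and 6.88 in wild-type cells. Wild-type 72 h replicates 1 and 3 stood above every other array and replicate 2 below the untreated wild-type arrays, the widest spread of any member in any group (SD 0.79). The difference from untreated cells at 72 h was −0.27 ± 0.29 in knockout cells (adjusted p = 0.473) and 0.70 ± 0.29 in wild-type cells (adjusted p = 0.0601). Without wild-type 72 h replicate 2 the wild-type difference was 1.14 and was called (adjusted p = 0.000548). On all arrays it was also called with arrays weighted per group (adjusted p = 0.0151) or the replicate number as a block (adjusted p = 0.0382). The 12 members called in no ATRA comparison had differences between −0.35 and 0.70, and 7 of them had a mean signal below the array median, as did 14 of all 37. With a single array left out, 7 of the 12 gained a call in at least 1 comparison (TNFRSF9, TNFRSF13C, TNFRSF18, TNFSF4, TNFSF8, TNFSF11 and TNFSF18).

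No member was called between knockout and wild-type cells. The counts were 0 of 37 without ATRA, at 48 h and at 72 h in limma's test, where 0.00601%, 0.021% and 0.0961% of all probe sets were called. An unadjusted p under 0.05 was found in 1, 3 and 6 members, and in 382, 1972 and 3713 of all 33297 probe sets. The differences ranged from −0.20 to 0.46 without ATRA, from −0.67 to 0.38 at 48 h and from −1.15 to 0.37 at 72 h, with medians of −0.01, −0.06 and −0.14, against −0.01, 0.01 and 0.01 over all probe sets. At 72 h 27 of the 37 members were lower in knockout cells by their means and 9 higher. The 3 knockout arrays lay below the 3 wild-type arrays in 9 members at 72 h (CD27, LTBR, TNF, TNFRSF12A, TNFRSF14, TNFRSF1A, TNFSF10, TNFSF4 and TNFSF9), where this held for 5% of all probe sets, and above them in 3 (FAS, FASLG and TNFRSF19), where it held for 6.65%. Without ATRA 5 members lay above and 4 below without overlap (8.84% and 9.3% of all probe sets), and at 48 h 2 above and 1 below (3.79% and 2.97%). The 95% interval of the difference stayed within a 2-fold change in all 37 members without ATRA, and in 34 of 37 at 48 h and at 72 h.

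**Figure D4:**
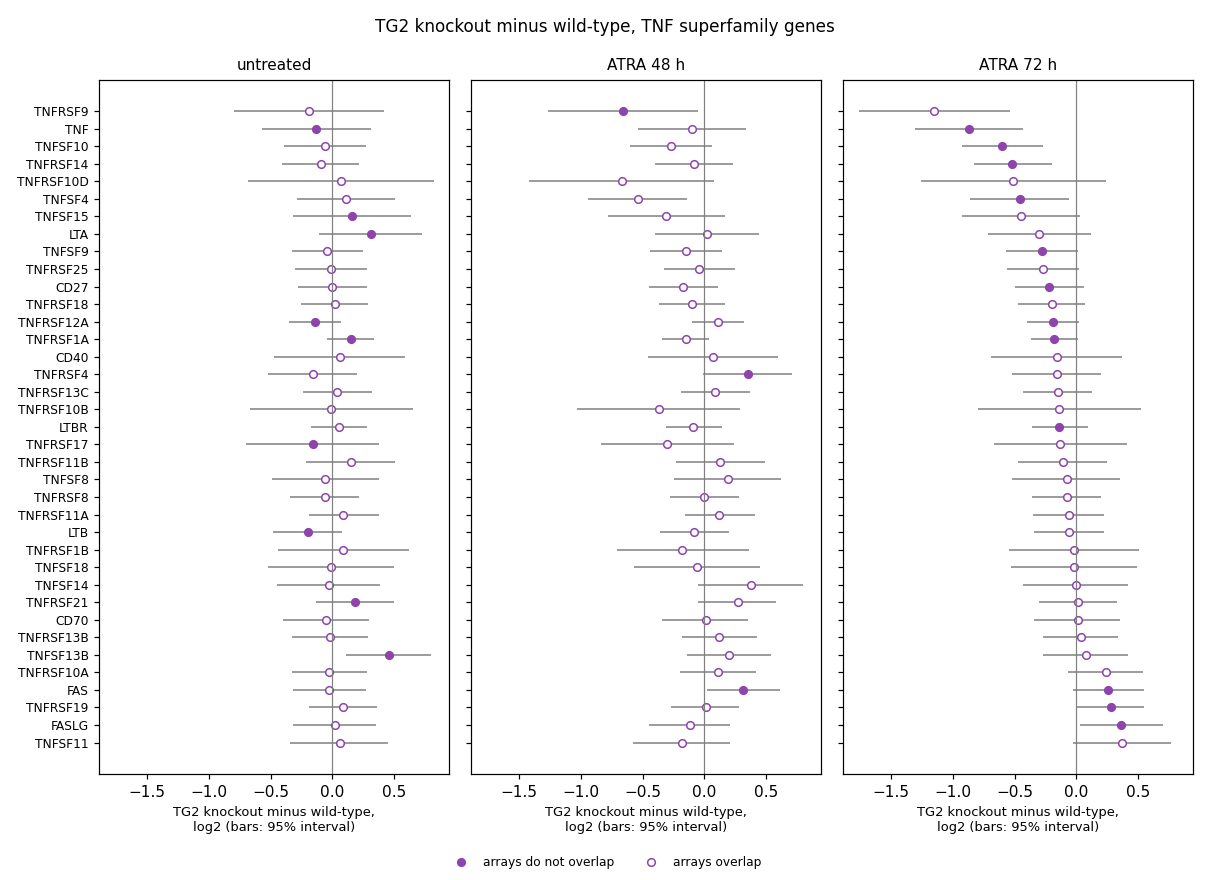
Difference of log2 signal between knockout and wild-type cells for the 37 members without ATRA, at 48 h and at 72 h in 1 µM ATRA. Bars are 95% intervals from the fit, and filled symbols mark members whose 3 knockout and 3 wild-type arrays do not overlap. No difference was called, and TNFRSF9, TNF, TNFSF10 and TNFRSF14 lie farthest left of 0 among the members with p under 0.05 at 72 h.

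The members with the smallest p between genotypes were TNF, TNFRSF9 and TNFSF10, all at 72 h. The knockout minus wild-type difference was −0.87 ± 0.21 for TNF (adjusted p = 0.134), −1.15 ± 0.29 for TNFRSF9 (adjusted p = 0.147) and −0.60 ± 0.16 for TNFSF10 (adjusted p = 0.154), and −0.52 ± 0.15 for TNFRSF14 (adjusted p = 0.209). TNFSF4, OX40 ligand, was among the members with an unadjusted p under 0.05 at both 48 h and 72 h, with differences of −0.54 and −0.46, and FAS at 48 h (0.31) and FASLG at 72 h (0.36) were those above 0. Without ATRA and at 48 h TNF differed by −0.13 ± 0.21 and −0.10 ± 0.21, TNFRSF9 by −0.19 ± 0.29 and −0.66 ± 0.29, TNFSF10 by −0.06 ± 0.16 and −0.27 ± 0.16, and TNFRSF14 by −0.09 ± 0.15 and −0.08 ± 0.15. At 48 h the knockout arrays of TNFRSF9 lay below the wild-type arrays (unadjusted p = 0.0365, adjusted p = 0.803). Without knockout 72 h replicate 2, an array with a lower first principal component than the others of its group, the difference of TNF was −1.08 and was called (adjusted p = 0.048). Without wild-type 72 h replicate 2 that of TNFRSF9 was −1.60 and was called (adjusted p = 0.0057). On the second principal component replicate 2 stood highest in each ATRA group, at 11.1 in knockout and 19 in wild-type cells at 72 h. The part of these components in the differences was not tested. The change under ATRA at 72 h differed between knockout and wild-type cells by −0.73 ± 0.29 for TNF, −0.96 ± 0.41 for TNFRSF9 and −0.54 ± 0.22 for TNFSF10, each with an adjusted p of 1. No member was called for the difference of response at 48 h or 72 h, where 0.003% and 0% of all probe sets were called. There 3 and 6 members had an unadjusted p under 0.05, as had 960 and 1553 of all 33297 probe sets. TNFSF13B was the 1 member with an unadjusted p under 0.05 without ATRA, at 7.35, 7.37 and 7.45 in knockout and 6.98, 6.85 and 6.97 in wild-type cells. Its difference was 0.46 ± 0.16 with an adjusted p of 1 in the fit of all arrays, and it was called when the spread was taken from the untreated arrays alone (adjusted p = 0.0197) or arrays were weighted per group (adjusted p = 0.00464).

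The members' levels at 72 h and 48 h did not pass the test in either genotype. In limma's test 0 of 37 were called, as were 0% of all probe sets. An unadjusted p under 0.05 was found in 5 members in knockout and 1 in wild-type cells. Of all 33297 probe sets, 2732 in knockout and 1952 in wild-type cells had such a p.

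Of 39 proteins listed as carrying or curbing the receptors' signals, 34 had a probe set of their own. In knockout cells 3 of them (8.82%) were called higher and 13 (38.2%) lower at 48 h, against 21.5% and 19.9% of all probe sets. At 72 h 6 (17.6%) were called higher and 9 (26.5%) lower in knockout cells, against 22.8% and 19.2%. In wild-type cells 8 (23.5%) were called higher and 12 (35.3%) lower at 48 h, against 19.3% and 19.6%, and 8 (23.5%) higher and 10 (29.4%) lower at 72 h, against 23.1% and 21%. Their median differences were −0.16 and −0.08 in knockout and −0.23 and −0.14 in wild-type cells, against 0.14, 0.13, 0.10 and 0.12 over all probe sets. Among the listed proteins, the largest called changes at 72 h in wild-type cells were in TAB3, BID, TNFAIP8 and TNIP1. TAB3, an adaptor of the kinase TAK1, changed by −1.44 ± 0.21, and BID, which links caspase 8 to mitochondria, by −1.34 ± 0.11. TNFAIP8 changed by −1.34 ± 0.13, and TNIP1, a partner of A20 that curbs NF-kB, by 1.28 ± 0.17. In knockout cells at 72 h the same genes gave −1.08, −1.51, −1.24 and 0.47, each called. Between knockout and wild-type cells none of the 34 was called at any time. Without ATRA, at 48 h and at 72 h, 1, 3 and 5 of them had an unadjusted p under 0.05. Of all 33297 probe sets 382, 1972 and 3713 did.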

How the data were processed

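For each probe set the deposited table gives a value on each of 18 Affymetrix arrays, on a scale taken here as log2 because the values lie between 0.73 and 13.56 with similar array medians (6.12 to 6.26). How the authors corrected the background and normalized the arrays is not given in the sources used here. No further normalization was applied. Detection calls were not used, and the number of arrays limits the precision. Probe sets were named through GEO's platform annotation: 19460 of 33297 carry 1 gene, 1754 several and 12083 none, and all 37 members matched a RefSeq symbol.

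With limma 3.58.1 in R 4.3.3, the 6 group means were estimated in a single model of the 18 arrays, with eBayes and a mean-variance trend, for 11 contrasts. Adjustment followed Benjamini and Hochberg across the 33297 probe sets, tests were 2-sided, and 0.05 was the threshold. The members, the list of signalling proteins and the markers were chosen with earlier results of these data known. Values on every array are given for the 10 called members with the largest change at 72 h in wild-type cells, for the 3 with the smallest p between genotypes, and for their listed ligand or receptor partners. The other members are given by means, changes or counts, and CD40 and TNFSF13B have some array values that were chosen after they had been seen. TATAAA was added to the motifs searched after the promoters had been read.

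Same-numbered knockout and wild-type arrays at 72 h deviated together from their group means, with r of 0.103, 0.16 and 0.138 across probe sets. At 48 h r was 0.196, 0.194 and 0.089, and without ATRA it was −0.0601, −0.056 and −0.128. Same-numbered ATRA and untreated arrays of a genotype gave r between −0.0397 and 0.0531. The labels do not say what a number marks. Alternatives were 8 other settings and each array left out in turn.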

Additional observations from a re-analysis of the deposited data

Results flagged for a closer look

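Probe sets that were not used above because they are shared with another gene also changed with ATRA. The one annotated to TNFSF12, TNFSF13 and their joined transcript, ligands known as TWEAK and APRIL, was higher than in untreated cells by 0.60 at 48 h and 0.64 at 72 h in knockout cells, and by 0.64 and 0.69 in wild-type cells (adjusted p = 0.00196, 0.00131, 0.00123 and 0.000604 in limma's test). The one annotated to LOC254896 and TNFRSF10C, a decoy receptor of TRAIL, was higher by 0.62 and 0.56 in knockout cells and by 0.42 and 0.46 in wild-type cells (adjusted p = 0.00482, 0.00841, 0.04 and 0.0242). Which of the genes on each probe set gave the signal cannot be told apart. The probe set shared by RTEL1 and TNFRSF6B, another decoy, differed by −0.03 in knockout and 0.04 in wild-type cells at 72 h and was not called. Groups of 3 arrays were not tested for outlying samples.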

How the results depend on the processing

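Of 65 calls of members in the 4 ATRA comparisons, 43 were kept under every alternative that held the member and 22 were lost under at least 1. TNFRSF1A in knockout cells at 48 h changed from a called −0.25 to 0.03 after quantile normalization, and the cause was not tested. Between genotypes without ATRA, 1 member (TNFSF13B) was called with only the arrays compared or with array weights per group. With single arrays left out, the members called numbered 11 to 18 (knockout) and 11 to 16 (wild-type) at 48 h, 14 to 20 and 11 to 21 at 72 h, 0 to 1 between genotypes at 72 h, and 0 in every other comparison. With the replicate number as a block the counts were 16 (knockout) and 15 (wild-type) at 48 h and 17 and 19 at 72 h. The block ended the 72 h calls of TNFRSF17 (adjusted p = 0.0534 in knockout and 0.0604 in wild-type cells) and CD40 (0.0528), and added calls of TNFRSF10B at 72 h in knockout cells (0.0405), and of TNFRSF10D at 48 h (0.0332) and TNFRSF9 (0.0382), TNFRSF13C (0.0439) and TNFRSF18 (0.0427) at 72 h in wild-type cells. It changed no call of a member between genotypes, with an adjusted p at 72 h of 0.12 for TNF, 0.117 for TNFRSF9 and 0.139 for TNFSF10. Over all probe sets the calls between genotypes moved by more than 1.5 times: 2 without ATRA became 284 with only the arrays compared, 309 with array weights and 1 with quantile normalization, the brighter probe sets or the block. The 7 at 48 h became 3 with centred arrays, 2 without the trend and 0 with only the arrays compared or array weights, and the 32 at 72 h became 53 with quantile normalization, 14 with array weights and 0 with only the arrays compared. For the difference of response, 1 call at 48 h became 2 with only the arrays compared and 0 with the brighter probe sets, and 0 at 72 h became 3 with only the arrays compared. Between 72 h and 48 h in knockout cells, 0 became 3 without the trend. Dim probe sets limit what can be seen in 14 members.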
